A study of Rattus norvegicus with 6 samples.

Results

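GABA-A receptors are the chloride channels through which the transmitter GABA inhibits neurons, and 7 of their subunit genes were followed here in tissue labelled prefrontal cortex, from aged rats: Gabra2, Gabra3, Gabra4, Gabra5, Gabrb1, Gabrb2 and Gabrd. They were chosen by gene symbol out of 30076 symbols in the deposited tables. The values are FPKM, fragments counted per unit of transcript length and of mapped depth. Of the 7 genes, 5 had rows of their own. In all 6 libraries Gabra5 and Gabrb2 shared their row with an unnamed clone model, AABR07003500.2 and AABR07029417.1, so their values are those of the shared row and are given apart.

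The tissue came from 6 male F344 rats aged 18 months. The manipulated group was 3 rats given cranial osteopathic manipulation (COM), a manual treatment of the head, for 7 days under isoflurane. The untreated group was 3 rats that were anaesthetised too and had no manipulation, so both groups share exposure to isoflurane at 1.5 to 3%, an anaesthetic that itself enhances GABA-A receptor currents. Each rat gave 1 library from a coronal slab of 1 mm, the manipulated replicates being 4, 5 and 6 and the untreated ones 1, 2 and 3. The study asked whether manipulation goes with altered gene expression in this tissue.

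A GABA-A receptor is a ring of alpha and beta subunits with a further subunit such as delta. Receptors with alpha2 or alpha3 gather at synapses, where the scaffold protein gephyrin holds them and they give brief, phasic inhibition. Receptors with alpha4 and delta, and many with alpha5, lie outside synapses and give a steady, tonic inhibition in response to ambient GABA. In rodent brain alpha4 and delta are known for high levels in the thalamus, striatum and dentate gyrus, and alpha5 for the hippocampus and deep cortical layers.

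The extrasynaptic subunit genes Gabra4 and Gabrd had the lowest levels of the 7 in manipulated relative to untreated rats, while the synaptic Gabra3 had like levels in both groups as deposited. Gabra4 averaged 5.78 ± 2.05 FPKM in manipulated and 15.2 ± 4.78 FPKM in untreated rats (SD, n = 3 each), and Gabrd 5.72 ± 1.57 FPKM in manipulated and 10.1 ± 2.10 FPKM in untreated rats. Gabra3 averaged 5.46 ± 0.793 FPKM in manipulated and 5.36 ± 0.748 FPKM in untreated rats. As deposited, 87.0% of all tested genes lay below 0. With median-ratio scaling between libraries the log2 fold change was -0.86 for Gabra4, -0.34 for Gabrd against -0.73 as deposited, and 0.41 for Gabra3, whose scaled groups did not overlap, manipulated rats being higher. None of the 7 genes passed the limma test adjusted over all tested genes at 0.05, as deposited or scaled, so these differences are given as values. The p-values measure the spread between 3 rats a group, and in bulk tissue fewer cells of a type and less RNA per cell cannot be told apart. Thalamic relay markers, from a region rich in alpha4 and delta, summed to between 10.9 and 15.7 FPKM in manipulated and between 97.2 and 114 FPKM in untreated libraries. Markers of striatal medium spiny neurons, which also carry alpha4 and delta, went the other way. They summed to between 90.5 and 229 FPKM in manipulated and between 54.8 and 82.2 FPKM in untreated libraries. The part of either list in the Gabra4 and Gabrd values was not tested. Pmch, a hypothalamic peptide gene, averaged 0.0689 FPKM in manipulated and 23.3 FPKM in untreated rats. The thalamic gene Shox2 averaged 0.165 FPKM in manipulated and 6.40 FPKM in untreated rats. Both were named after their values were seen. Hypothalamic markers over 8 genes summed to 7.32, 8.78 and 76.5 FPKM in manipulated replicates 4, 5 and 6. In untreated libraries they summed to between 73.3 and 140 FPKM, a range that held manipulated replicate 6. The labels give no histology, so a difference in the regions the slabs held and a difference in expression within cortex cannot be told apart. Of the 5 members tested in rows of their own, Gabra4 and Gabrd had an unadjusted p under 0.05 with manipulated rats lower, where 13.6% of all 10670 tested genes did so. Adjusted calls were rare among all genes: 0.272% passed as lower and 0.0843% as higher, and 0.197% and 0.0937% with scaling. With shared rows kept these shares were 0.142% and 0.045%, and 0.232% and 0.0975% with scaling.

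The promoters of the genes at the 2 ends of this range are shown, and those of the beta genes are described with them. RefSeq promoter sequence of the build GRCr8 was matched for 6 of the 7 members. The stretches below run 5′ to 3′ over the 250 bases before the annotated gene start, with capitals marking the GC box, GGGCGG on either strand. Gabra4 lies at chr14:36944497-36944746 on the plus strand, Gabrd at chr5:171252710-171252959 on the minus strand, and Gabra3 at chrX:155543871-155544120 on the minus strand.
Gabra4: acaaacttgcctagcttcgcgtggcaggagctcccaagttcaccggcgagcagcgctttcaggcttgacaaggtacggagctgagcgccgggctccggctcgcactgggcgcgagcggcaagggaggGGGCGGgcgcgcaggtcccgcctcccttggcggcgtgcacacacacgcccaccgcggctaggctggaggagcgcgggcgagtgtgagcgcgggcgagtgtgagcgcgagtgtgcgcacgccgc
Gabrd: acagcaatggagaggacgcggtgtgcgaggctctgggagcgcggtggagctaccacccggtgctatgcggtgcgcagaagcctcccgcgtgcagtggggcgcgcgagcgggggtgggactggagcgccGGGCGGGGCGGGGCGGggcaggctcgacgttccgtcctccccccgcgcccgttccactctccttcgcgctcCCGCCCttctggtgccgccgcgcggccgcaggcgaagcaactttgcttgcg
Gabra3: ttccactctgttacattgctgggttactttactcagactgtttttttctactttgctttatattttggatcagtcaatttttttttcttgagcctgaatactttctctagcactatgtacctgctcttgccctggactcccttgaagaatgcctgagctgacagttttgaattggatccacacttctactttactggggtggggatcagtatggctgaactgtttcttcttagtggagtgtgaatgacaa
The Gabra4 stretch held 1 GC box and 33 CpG dinucleotides at a GC content of 71.6%. The Gabrd stretch held 4 GC boxes, 3 of them overlapping in a run, and 35 CpG dinucleotides at 74.0%. The Gabra3 stretch had no GC box and 0 CpG dinucleotides at 40.4%, and it was the one member with a TATAAA match. The Gabra5 stretch held 1 GC box at 76.4%. The beta genes, with deposited log2 fold changes of -0.52 for Gabrb1 and -0.60 for Gabrb2, had no GC box, at 49.2% and 43.2% GC. Over 33469 promoters of the same length the median GC content was 51.2%, 30.5% held a GC box and 12.9% a TATAAA on either strand. None of the 6 stretches held TGACG, the core of the cAMP response element, on either strand, while 18.2% of all promoters did. These are matches of letters in a window, and no binding was measured.

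Library facts bear on every value that follows. The median of tested genes was 4.01, 4.08 and 2.75 FPKM in manipulated replicates 4, 5 and 6 and 5.50, 3.98 and 5.17 FPKM in untreated replicates 1, 2 and 3, so manipulated replicate 6 lay lowest. Over the 10670 tested genes the median log2 fold change was -0.36 and 87.0% of genes lay below 0, with manipulated minus untreated on the scale of log2(FPKM + 1) as for all fold changes here. With median-ratio scaling between libraries that median was -0.0037, and member values are therefore given both as deposited and scaled. Between 9258 and 10153 genes reached 1 FPKM in a manipulated library and between 10257 and 10921 in an untreated one.

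Gabra4 encodes alpha4, the alpha subunit that pairs with delta and does not bind classical benzodiazepines. It had 7.37, 6.50 and 3.46 FPKM in manipulated replicates 4, 5 and 6, against 18.3, 9.69 and 17.7 FPKM in untreated replicates 1, 2 and 3. Every manipulated library lay below every untreated one, and the FPKM intervals deposited with the values also stayed apart, at most 7.84 FPKM in manipulated and at least 9.13 FPKM in untreated rats. The log2 fold change was -1.26 (SE 0.34, 95% interval -2.02 to -0.50), with an unadjusted limma p of 0.00458 and an adjusted p of 0.271. Only 1.86% of tested genes had a lower log2 fold change. With median-ratio scaling the values were 7.73, 6.49 and 5.32 FPKM in manipulated and 13.7, 10.1 and 14.0 FPKM in untreated rats, and the fold change was -0.86 on the log2 scale (SE 0.18) at an adjusted limma p of 0.178, and the groups again did not overlap. Of 17 other settings, Gabra4 passed in the one with weights per library, with an adjusted limma p of 0.0327. In that setting 7.62% of all tested genes passed as lower, against 0.272% in the fit without weights. The adjusted p over all 17 settings ran from 0.0327 to 0.634.

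Gabrd encodes delta, the subunit that gives tonic receptors their high GABA affinity. It had 6.32, 6.90 and 3.94 FPKM in manipulated replicates 4, 5 and 6, against 9.96, 8.04 and 12.2 FPKM in untreated replicates 1, 2 and 3. The groups did not overlap, although the deposited intervals met, reaching 8.07 FPKM in manipulated and down to 7.38 FPKM in untreated rats. The log2 fold change was -0.73 (SE 0.27, 95% interval -1.35 to -0.12), with an unadjusted limma p of 0.0242 and an adjusted p of 0.323. With scaling it was -0.34 (SE 0.12) with an adjusted limma p of 0.383, and the groups stayed apart, the highest manipulated value being 6.89 FPKM and the lowest untreated one 7.48 FPKM. Gabrd passed with weights per library alone, at an adjusted limma p of 0.0463, within a range up to 0.634, and there too it stood among the 7.62% of genes called lower.

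Gabra5 encodes alpha5, an extrasynaptic subunit that is anchored by radixin and modulates hippocampal learning in rodents. Its shared row had 5.37, 4.54 and 2.57 FPKM in manipulated replicates 4, 5 and 6, against 8.87, 5.44 and 6.11 FPKM in untreated replicates 1, 2 and 3. The groups lay apart by the small step between 5.37 and 5.44 FPKM, and the deposited interval of manipulated replicate 4 ran up to 24.2 FPKM, far above every untreated value. The log2 fold change was -0.61 (SE 0.29, 95% interval -1.30 to 0.07), at a limma adjusted p of 0.356 when 13338 genes were fitted with shared rows kept. With median-ratio scaling it was -0.24 (SE 0.16) and the groups overlapped.

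Among synaptic alpha genes, Gabra2 encodes alpha2, which is enriched at axon initial segments and linked to the calming effect of benzodiazepines in mice. It had 10.6, 9.00 and 6.18 FPKM in manipulated replicates 4, 5 and 6, against 18.8, 9.23 and 11.3 FPKM in untreated replicates 1, 2 and 3. The groups overlapped, and untreated replicate 1 stood above the rest. The log2 fold change was -0.53 (SE 0.32, 95% interval -1.25 to 0.19), with a limma adjusted p of 0.353, and it was -0.11 (SE 0.18) with scaling, an adjusted p of 0.823.

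Gabra3 encodes alpha3, which in rodents marks the reticular thalamic nucleus and monoamine neurons as well as cortex. It had 6.20, 5.55 and 4.62 FPKM in manipulated replicates 4, 5 and 6, against 6.07, 4.58 and 5.43 FPKM in untreated replicates 1, 2 and 3. The ranges nearly coincided, and the log2 fold change was 0.02 (SE 0.22, 95% interval -0.47 to 0.51; limma adjusted p = 0.948), and 87.8% of tested genes had a lower one. With median-ratio scaling Gabra3 was at 6.50, 5.55 and 7.09 FPKM in manipulated and at 4.56, 4.77 and 4.31 FPKM in untreated rats. The scaled groups did not overlap, and Gabra3 came to 0.41 (SE 0.11) on the log2 scale, at an unadjusted limma p of 0.00945 and an adjusted p of 0.272.

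The beta subunits help form the GABA binding site in synaptic and extrasynaptic receptors alike. Gabrb1 had 3.13, 6.02 and 1.68 FPKM in manipulated replicates 4, 5 and 6, against 5.39, 4.93 and 5.05 FPKM in untreated replicates 1, 2 and 3. Manipulated rats straddled the narrow untreated range, replicate 5 above it and the other two below. Its log2 fold change was -0.52 (SE 0.33, 95% interval -1.25 to 0.22), with a limma adjusted p of 0.361, and it was -0.17 (SE 0.26) with scaling, an adjusted p of 0.797. As deposited it moved to -0.88 without manipulated replicate 5 and to -0.18 without manipulated replicate 6.

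Gabrb2 encodes beta2, a common partner of alpha4 and delta in thalamus. Its shared row had 9.21, 8.99 and 5.62 FPKM in manipulated replicates 4, 5 and 6, against 19.9, 9.74 and 9.44 FPKM in untreated replicates 1, 2 and 3. The groups lay apart by the step between 9.21 and 9.44 FPKM, and untreated replicate 1 was well above the other two. The log2 fold change was -0.60 (SE 0.35, 95% interval -1.41 to 0.22), with a limma adjusted p of 0.365, and with scaling it was -0.18 (SE 0.24) and the groups overlapped.

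**Figure D1:**
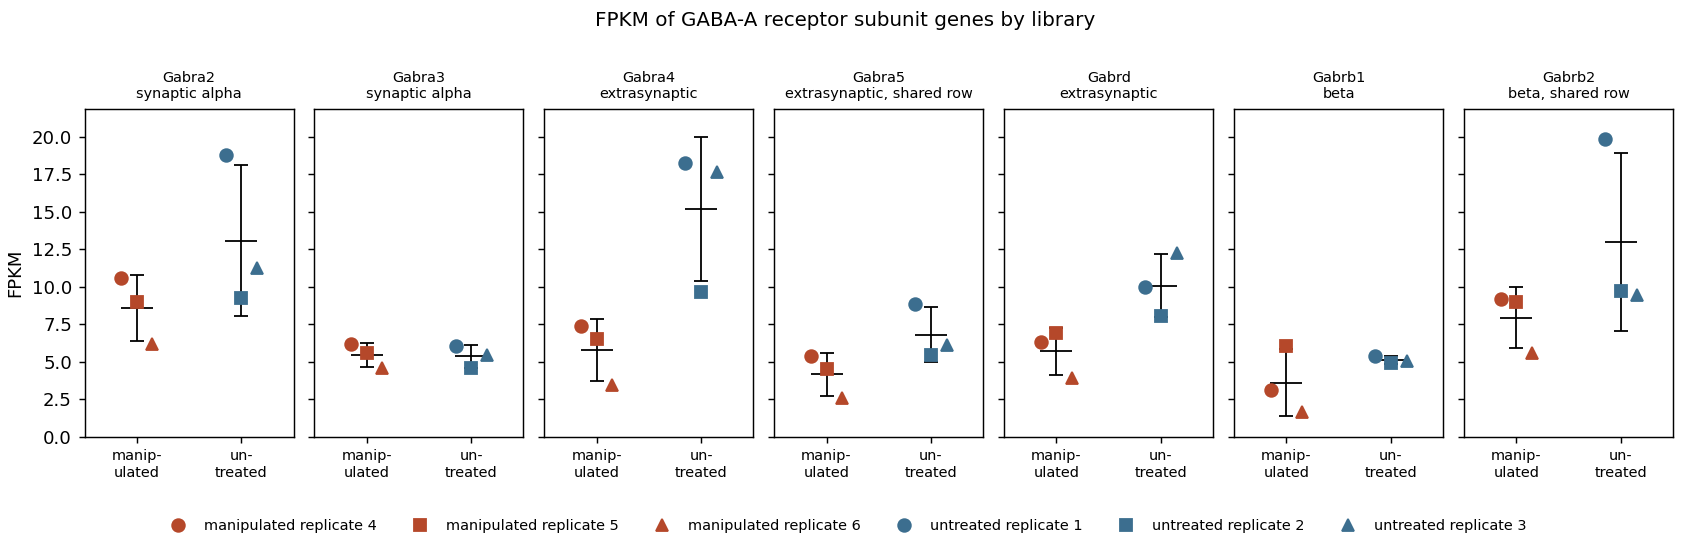
FPKM as deposited (vertical axis) of the 7 subunit genes in the 3 manipulated (red) and 3 untreated (blue) libraries, with the mean (bar) and SD (whiskers) of each group. Gabra4, Gabrd and the shared rows of Gabra5 and Gabrb2 show manipulated libraries below every untreated one. Manipulated libraries reach at most 7.37 FPKM for Gabra4, 5.37 for Gabra5 and 9.21 for Gabrb2. Untreated libraries have at least 9.69, 5.44 and 9.44 FPKM for the same genes. For Gabra3 the groups cover nearly the same range.

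All 7 members reached the filter of a mean of 1 FPKM. As deposited, groups did not overlap in 2 of the 5 members with rows of their own (Gabra4 and Gabrd), manipulated rats being lower, against 23.7% of all tested genes, and in both shared rows, against 23.6% where shared rows were kept. Scaled, 2 members were lower without overlap, against 9.85% of tested genes, and Gabra3 was higher, as 10.0% of tested genes were, while both shared rows overlapped, where 9.54% of genes were lower without overlap. In untreated rats the order of mean FPKM was Gabra4, Gabra2, Gabrb2, Gabrd, Gabra5, Gabra3 and Gabrb1. In manipulated rats it was Gabra2, Gabrb2, Gabra4, Gabrd, Gabra3, Gabra5 and Gabrb1. Each gene's range over rats overlapped that of the next in the order, in both groups. Within a rat, where both genes share a library, some neighbours kept their order in all 3 rats: Gabra2 over Gabrb2, Gabrb2 over Gabra4 and Gabra3 over Gabra5 in manipulated rats, and Gabrd over Gabra5 and Gabra5 over Gabra3 in untreated rats. The other neighbours changed places in at least 1 rat of the group.

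Set against Gabra2 and Gabra3 together within a library, extrasynaptic genes had relatively lower levels in each manipulated rat than in any untreated rat. The mean log2(FPKM + 1) of Gabra4, Gabra5 and Gabrd minus that of Gabra2 and Gabra3 was -0.32, -0.23 and -0.57 in manipulated replicates 4, 5 and 6, against 0.11, 0.18 and 0.44 in untreated replicates 1, 2 and 3. The difference of the group means was -0.62, with a spread of 0.17 (SD, n = 3) within manipulated and 0.18 (SD, n = 3) within untreated rats. No test is given, because the genes were chosen with earlier results known. With median-ratio scaling it was -0.63. When Gabra2 alone stood for the synaptic side it was -0.34, and the groups overlapped, untreated replicate 1 lying below manipulated replicate 5. That setting was chosen after the data were seen.

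As a share of the summed FPKM of the 4 alpha members, which does not depend on scaling between libraries, Gabra4 made up 25.0%, 25.4% and 20.6% in manipulated replicates 4, 5 and 6, against 35.1%, 33.5% and 43.6% in untreated replicates 1, 2 and 3. The Gabra3 share was 21.0%, 21.7% and 27.5% in manipulated and 11.7%, 15.8% and 13.4% in untreated rats. Gabra5 held 17.1% ± 1.59 in manipulated and 17.0% ± 1.84 in untreated rats (SD, n = 3 each), and Gabra2 held 35.9% ± 0.779 in manipulated and 32.0% ± 4.13 in untreated rats. A share shows unequal change within the 4 genes and not which of them moved.

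**Figure D2:**
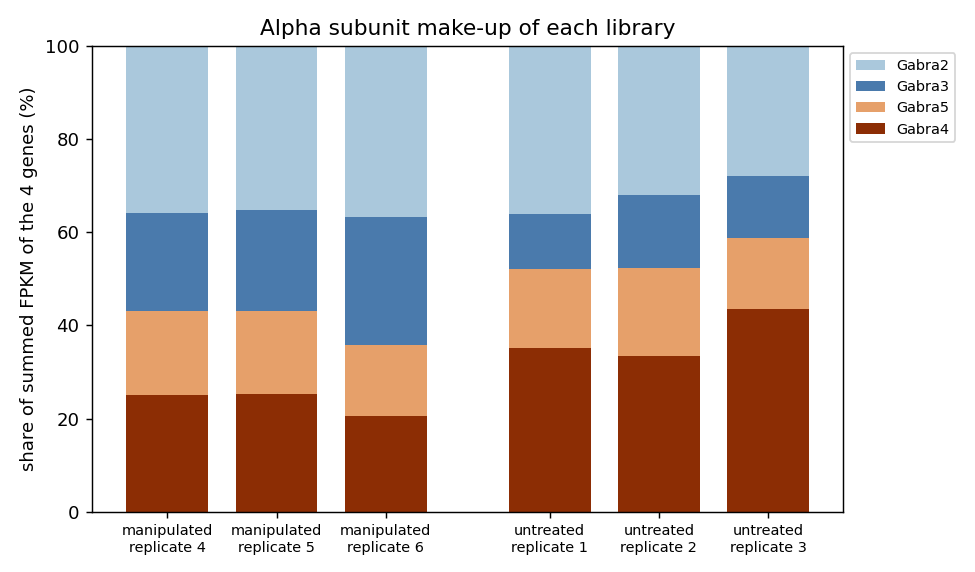
Share of the summed FPKM of Gabra2, Gabra3, Gabra4 and Gabra5 (vertical axis, percent) in each library, manipulated on the left and untreated on the right. The Gabra4 part is between 20.6% and 25.4% in manipulated and between 33.5% and 43.6% in untreated libraries, and the Gabra5 part averages 17.1% in manipulated and 17.0% in untreated libraries.

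Ratios between single subunits do not depend on scaling either. Gabra4 over Gabra3 was 1.19, 1.17 and 0.749 in manipulated replicates 4, 5 and 6, against 3.01, 2.11 and 3.25 in untreated replicates 1, 2 and 3. Gabra5 over Gabra3 was 0.867, 0.817 and 0.556 in manipulated rats, against 1.46, 1.19 and 1.13 in untreated rats. Neither ratio overlapped between groups. With Gabra2 in place of Gabra3, the Gabra5 ratio overlapped between groups and the Gabra4 ratio did not. Gabrd over Gabra4, the extrasynaptic pair, was 0.857, 1.06 and 1.14 in manipulated rats, against 0.546, 0.831 and 0.693 in untreated rats, with every manipulated rat above every untreated one. Gabrb1 over Gabrb2 averaged 0.436 ± 0.203 in manipulated and 0.438 ± 0.145 in untreated rats (SD, n = 3 each).

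Among other subunit genes, Gabrg1 averaged 5.82 ± 1.99 FPKM in manipulated and 8.41 ± 4.29 FPKM in untreated rats (SD, n = 3 each), and Gabrg3 2.49 ± 0.252 FPKM in manipulated and 2.82 ± 0.446 FPKM in untreated rats. The groups overlapped for both, at log2 fold changes of -0.42 (SE 0.36; limma adjusted p = 0.446) for Gabrg1 and -0.13 (SE 0.21; limma adjusted p = 0.674) for Gabrg3. With scaling they came to -0.02 and 0.20. Gabra6, the alpha subunit of cerebellar granule cells, averaged 0.0141 ± 0.00186 FPKM in manipulated and 0.0142 ± 0.0130 FPKM in untreated rats (SD, n = 3 each), and Gabre, Gabrp, Gabrq, Gabrr1, Gabrr2 and Gabrr3 all lay under 1 FPKM in every library.

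**Figure D3:**
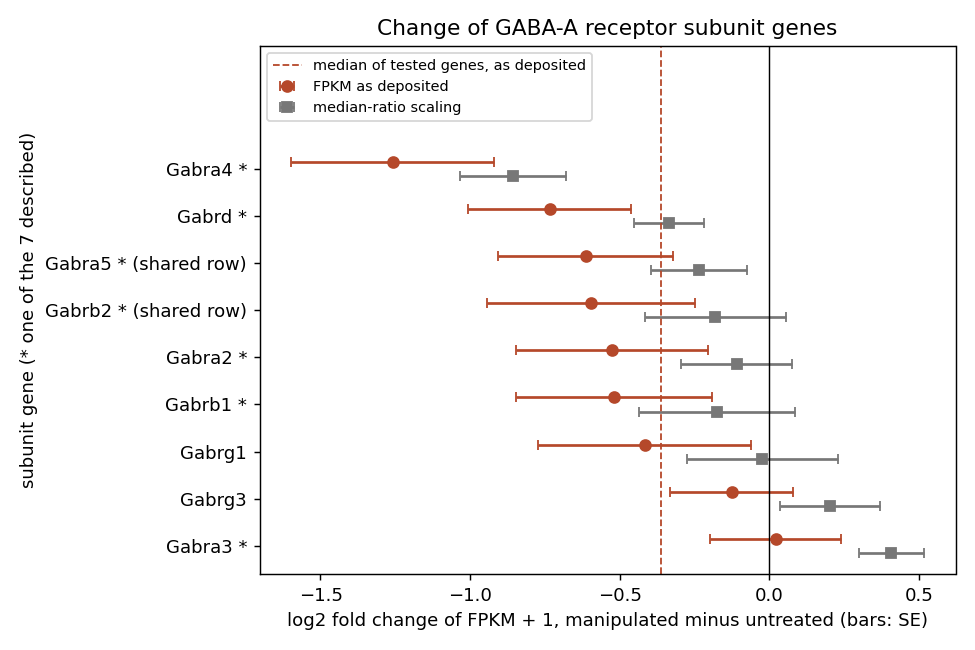
Log2 fold change, manipulated minus untreated, of log2(FPKM + 1) with its SE for the 7 subunit genes with Gabrg1 and Gabrg3, as deposited (circles) and with median-ratio scaling (squares), and the median of tested genes as deposited (dashed). Gabra4 lies lowest at -1.26 as deposited and -0.86 scaled, and Gabra3 highest at 0.02 and 0.41.

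By place in the genome, Gabrb1, Gabra4, Gabra2 and Gabrg1 form a cluster on chromosome 14 (Rnor_6.0). Gabrb1 spanned 38631188 to 39112876, Gabra4 39154225 to 39231695, Gabra2 39661239 to 39804425 and Gabrg1 39964526 to 40051366, each taken as the widest extent over the 6 libraries. Gabra4 lay 41.3 kb from Gabrb1, and in RefSeq the pair is transcribed in opposite directions, away from each other. Between these neighbours, Gabra4 over Gabrb1 was 2.35, 1.08 and 2.06 in manipulated replicates 4, 5 and 6, against 3.39, 1.97 and 3.50 in untreated replicates 1, 2 and 3. The groups overlapped in that ratio. The other members lay elsewhere, Gabrd on chromosome 5 (172797450 to 172809414), Gabra3 on the X chromosome (152414615 to 152642531), the Gabra5 row on chromosome 1 (112833790 to 112947668) and the Gabrb2 row on chromosome 10 (27973107 to 28193257). Row spans varied by at most 1.05 times between libraries for any member.

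Unnamed loci assembled inside a member's span were a further readout. Gabrb1 held 19, 2 and 45 of them in manipulated replicates 4, 5 and 6, against 47, 49 and 32 in untreated replicates 1, 2 and 3, and Gabrd and Gabra5 held 0 in every library. Gabra4 held 8, 0 and 8 in manipulated replicates 4, 5 and 6, against 8, 4 and 2 in untreated replicates 1, 2 and 3, and the groups overlapped. Their summed FPKM was 14.2, 0 and 7.91 in manipulated and 46.6, 98.8 and 4.77 in untreated replicates. That was above the FPKM of Gabra4 itself in manipulated replicates 4 and 6 (7.37 and 3.46) and untreated replicates 1 and 2 (18.3 and 9.69). It was below that of Gabra4 in manipulated replicate 5 (6.50) and untreated replicate 3 (17.7). Each locus has an FPKM by its own length, so a sum over loci and the FPKM of a single gene do not compare numbers of fragments. Whole libraries held from 17102 to 36546 unnamed loci in manipulated and from 51528 to 83180 in untreated libraries, and the part of this in the member counts was not tested.

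The genes with the profile most like each member over the 6 libraries were found by the root mean square difference of log2(FPKM + 1), each gene centred on its own mean. For Gabra4 they were Rgs7, Prtfdc1 and Zc3h14, with differences of 0.146, 0.151 and 0.167, against a median of 0.495 over 4086 genes compared. For Gabrd they were Miga2, Pgk1 and Gabarapl2, at 0.0291, 0.0336 and 0.0385 against a median of 0.264. For Gabra5 they were Chl1, Opa1 and Ube2q2, at 0.0664 to 0.0736 against 0.270. For Gabra2 they were Braf, Ank3 and Ctnna2, at 0.0520 to 0.0584 against 0.295, and for Gabra3 Efhd1, Crebbp and Cacna1i, at 0.0744 to 0.0797 against 0.317. For Gabrb1 they were Ccdc124, Dynll2 and Fkbp11, at 0.0987 to 0.119 against 0.338, and for Gabrb2 Lman2l, Dpysl2 and Kcnj3, at 0.0804 to 0.0902 against 0.354. These genes share libraries and the general shift, so likeness over 6 values is a description.

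Around the receptor, 0 of 18 tested genes of its scaffold and transport passed the adjusted limma test, and 17 of the 18 lay below 0, with a median log2 fold change of -0.38 against -0.36 for all tested genes. Gabarapl2, of the family that moves receptors to the surface, had 12.9, 14.7 and 8.76 FPKM in manipulated replicates 4, 5 and 6, against 21.1, 16.0 and 25.6 FPKM in untreated replicates 1, 2 and 3. Its groups did not overlap (log2 fold change -0.74, SE 0.30; limma adjusted p = 0.326), and it was the 1 gene of the 18 with an unadjusted p under 0.05. Plcl1, which binds receptors on their way to the surface, averaged 4.87 ± 1.40 FPKM in manipulated and 7.17 ± 1.85 FPKM in untreated rats (SD, n = 3 each). Gabbr2, the 1 tested gene of the 5 listed for the metabotropic GABA-B receptor, had 15.3, 15.8 and 11.2 FPKM in manipulated and 31.4, 21.7 and 25.2 FPKM in untreated rats. Every manipulated library lay below every untreated one (log2 fold change -0.84, SE 0.28; limma adjusted p = 0.310). With scaling the log2 fold changes were -0.41 for Gabbr2, -0.31 for Gabarapl2 and -0.10 for Plcl1.

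Of 8 tested genes of GABA synthesis, transport and breakdown 4 lay below 0 and 0 passed the adjusted limma test as deposited, and the median log2 fold change was 0.01 as deposited and 0.45 with scaling. Slc32a1, which loads GABA into vesicles, had 27.3, 26.2 and 16.1 FPKM in manipulated replicates 4, 5 and 6, against 13.7, 12.6 and 14.8 FPKM in untreated replicates 1, 2 and 3. The groups did not overlap, and the difference was 0.69 (SE 0.29) on the log2 scale at a limma adjusted p of 0.326. With median-ratio scaling Slc32a1 rose by 1.12 (SE 0.12) on the log2 scale at a limma adjusted p of 0.0364. Slc6a11, a glial GABA transporter, averaged 14.1 ± 4.41 FPKM in manipulated and 21.6 ± 2.87 FPKM in untreated rats (SD, n = 3 each), a log2 fold change of -0.62 as deposited and -0.19 with scaling. Among 5 tested genes of chloride transport 0 passed, and Clcn2, a chloride channel, averaged 1.61 ± 0.293 FPKM in manipulated and 2.42 ± 0.132 FPKM in untreated rats (SD, n = 3 each).

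Markers of several brain regions differed between the groups. Cortical excitatory markers were present throughout, with Slc17a7 at 59.9, 74.4 and 50.8 FPKM in manipulated and 110, 71.5 and 84.9 FPKM in untreated rats. Thalamic relay markers, a region where alpha4, beta2 and delta are abundant, summed to 15.7, 15.0 and 10.9 FPKM over 9 genes in manipulated replicates 4, 5 and 6, against 97.2, 104 and 114 FPKM in untreated replicates 1, 2 and 3. All 8 tested genes of that list fell by limma, with a median log2 fold change of -2.28, among them Prkcd (4.10 ± 0.382 FPKM in manipulated and 34.5 ± 5.74 FPKM in untreated rats, SD, n = 3 each), Tcf7l2 and Ntng1, and 6 of the 8 fell with scaling. Markers of striatal medium spiny neurons, which also carry alpha4 and delta, summed to 219, 229 and 90.5 FPKM over 11 genes in manipulated rats and 57.0, 54.8 and 82.2 FPKM in untreated rats, with 0 past the adjusted limma test as deposited. As deposited 10 of the 11 were higher at an unadjusted limma p under 0.05, where 1.46% of all tested genes were. With scaling all 11 lay above 0, at a median log2 fold change of 1.56. Of these, 1 passed the adjusted limma test as higher (Scn4b, named after its values were seen; limma adjusted p = 0.0246).

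Hippocampal markers, of which 0 of 4 tested passed, summed to between 10.5 and 19.0 FPKM over 7 genes in manipulated and between 18.0 and 38.7 FPKM in untreated rats. As deposited 2 of the 4 were lower at an unadjusted limma p under 0.05, where 13.6% of all tested genes were. In 2 of the 4 manipulated rats were lower without overlap, where 23.7% of all tested genes were. Of 7 tested hypothalamic markers 7 lay below 0 as deposited, where 87.0% of all tested genes did. Of the 7, 1 passed the adjusted limma test as lower (Pmch). That list summed to 7.32, 8.78 and 76.5 FPKM over 8 genes in manipulated and 73.3, 99.6 and 140 FPKM in untreated rats. Of the cortical excitatory (7 tested), interneuron (9), astrocyte (4), oligodendrocyte (4), microglial (6) and choroid plexus (5) lists 0 genes passed the adjusted limma test as deposited. With scaling 1 did, the GABA vesicle gene Slc32a1 given above, which stands in the interneuron list, and which cells carried it was not tested. Cortical interneuron markers summed to between 142 and 230 FPKM over 9 genes in manipulated and between 132 and 202 FPKM in untreated rats, and the 3 cerebellar granule cell genes to under 0.1 FPKM in every library. Choroid plexus markers summed to between 238 and 1235 FPKM over 5 genes in manipulated and between 458 and 466 FPKM in untreated rats. Astrocyte markers summed to between 98.2 and 221 FPKM over 4 genes in manipulated and between 171 and 273 FPKM in untreated rats, oligodendrocyte markers to between 664 and 1039 FPKM over 4 genes in manipulated and between 953 and 1293 FPKM in untreated rats, and microglial markers to between 35.8 and 55.5 FPKM over 6 genes in manipulated and between 53.0 and 73.3 FPKM in untreated rats. These sums are as deposited. With scaling the median log2 fold change of tested genes was 0.90 for the interneuron list and 0.03 for the cortical excitatory list. It was -0.12 for astrocyte, 0.13 for oligodendrocyte, -0.08 for microglial and 1.16 for choroid plexus markers. The part of these markers in the values of Gabra4, Gabrd and the other members was not tested.

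**Figure D4:**
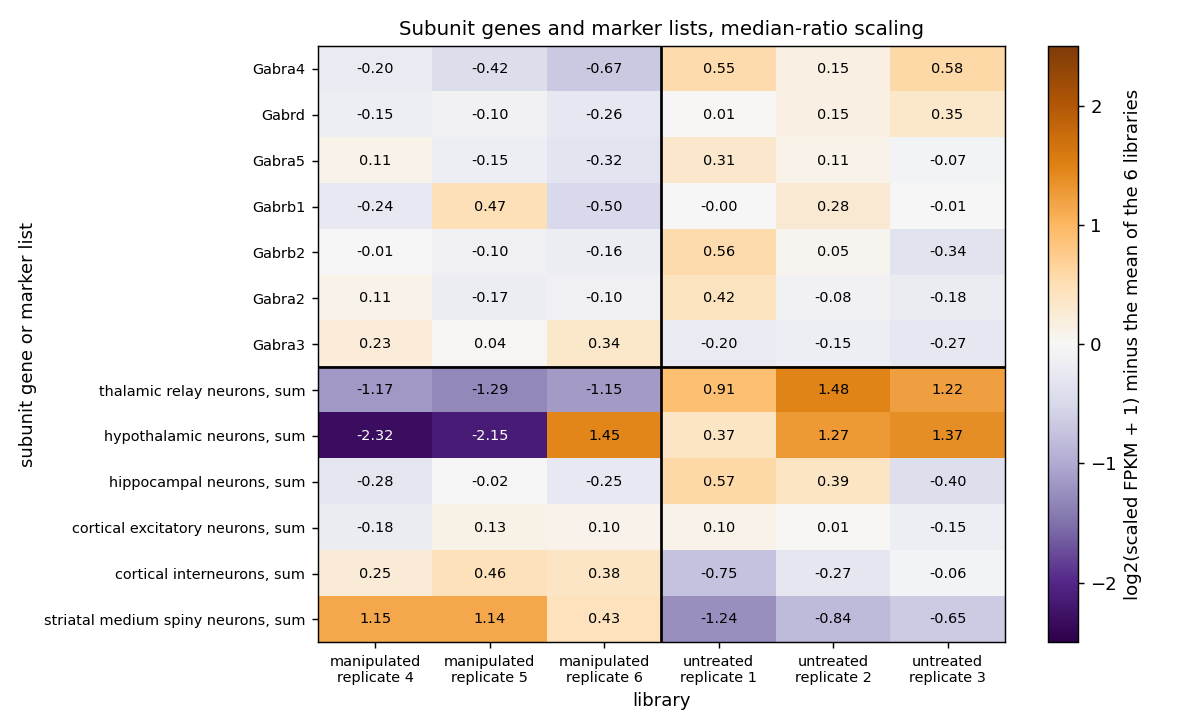
Centred log2(scaled FPKM + 1) of the 7 subunit genes and of the summed FPKM of 6 marker lists (rows) in each library (columns), after median-ratio scaling, with manipulated libraries left of the line. Gabra4 runs from -0.67 to -0.20 in manipulated and from 0.15 to 0.58 in untreated libraries, and the thalamic sum from -1.29 to -1.15 in manipulated and from 0.91 to 1.48 in untreated libraries.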

How the data were processed

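RNA of 6 rats was measured, 3 in each group by the treatment label, with 1 library per rat and no batch or pairing in the labels. The authors deposited FPKM values with lower and upper bounds, per the file headers. The submitters' processing notes name STAR 2.7.3a, Cufflinks without a version, and Rnor_6.0. Annotation release, strandedness and read totals are named in neither labels nor headers, so depth is unknown and overlapping antisense reads cannot be separated.

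FPKM was summed per symbol and library. Symbols that shared a row with another gene (3254), had rows over 100 kb apart (112), were missing from a library (32) or had a failed estimate (5) were left out, and 10670 genes with a mean of at least 1 FPKM were tested. Gabra5 and Gabrb2 come from a fit of 13338 genes that kept shared rows. The test was limma 3.58.1 in R 4.3.3 on log2(FPKM + 1) with a mean-variance trend, two-sided, with Benjamini-Hochberg adjustment over all tested genes. It was tested on 3 simulated data sets of 10670 genes with the means and spread of these data. There it recovered 14.3% of log2 changes of 1 and 69.7% of log2 changes of 2, so a gene that did not pass may still differ. The log2 scale with a pseudocount of 1 understates changes of low genes. The files' starts count from 0, as tested on miRNA rows, and are printed from 1. Sequences and strands came from RefSeq promoters (GRCr8), not converted between builds.

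Named genes were set by a rule: all members, other subunits with a mean of at least 1 FPKM, called genes or the 2 smallest p of each pathway list, up to 3 genes of each marker list by highest mean, and the 3 genes most like each member among tested genes that carry a gene name, with a mean of at least 5 FPKM. Results of some genes under this rule, and alternatives that use them, are not reported here. Members and lists were chosen with earlier results of these data known. Tables and figures were made in Python 3.11.15 (numpy 2.4.6, pandas 2.3.3, matplotlib 3.10.9).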

Additional observations from a re-analysis of the deposited data

How the results depend on the processing

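Over 17 other settings for a member with its own row (pseudocount, filter, scaling, variance model, weights, shared rows, 1 library left out), Gabra2, Gabra4 and Gabrd kept their direction, as did Gabra5, Gabrb1 and Gabrb2 over 16. Gabrb1 had no value with a mean of at least 5 FPKM, which it did not reach. With weights per library the log2 fold changes of Gabra4 and Gabrd were -1.12 and -0.71, and both passed. Gabra3 turned to -0.070 without untreated replicate 2 and -0.061 without manipulated replicate 4, and the cause was not tested. With 1 library left out, log2 fold changes ran from -0.73 to -0.25 for Gabra2, -0.070 to 0.12 for Gabra3, -1.53 to -0.98 for Gabra4, -0.79 to -0.37 for Gabra5, -0.88 to -0.18 for Gabrb1, -0.77 to -0.27 for Gabrb2 and -0.87 to -0.53 for Gabrd. The extrasynaptic minus synaptic difference ran from -0.69 to -0.52. With Gabra2 alone as synaptic, chosen after the data were seen, it was -0.34 and the groups overlapped. The difference in Gabra4 share, -13.8 percentage points, ran from -15.7 to -10.7. Over all genes 38 passed, and 20 with no filter, 84 with a robust prior, 948 with weights per library, 25 with shared rows kept and 28 to 56 with 1 library left out. No paired analysis was possible because the groups share no replicate number. With 3 rats a group and no counts, depth limits cannot be given beyond the deposited intervals.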
